A study of Mus musculus with 12 samples.

Results

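Glucocorticoid handling was examined in the tongue through 10 genes, taken by name from the expression files: the receptor genes Nr3c1 and Nr3c2, the enzyme genes Hsd11b1 and Hsd11b2, and 6 genes that glucocorticoid hormones induce, Fkbp5, Tsc22d3, Sgk1, Klf9, Mt1 and Mt2. They are 10 of 32498 named genes in the files, and 10 of 10 were among the 16852 tested genes, whose mean FPKM (reads scaled to library total and exon length) was 0.1 or more. The libraries came from tongues of C57BL/6 mice that had all drunk the carcinogen 4-nitroquinoline 1-oxide (4NQO, 100 µg/mL, 16 weeks). From week 4 of that exposure, 6 mice received gallic acid (GA, a plant polyphenol) by gavage at 100 mg/kg, 5 times per week, and 6 received the methyl cellulose vehicle (0 mg/kg GA) on the same schedule. The labels call the material tumor and tumor-associated tissue, and give neither age, sex nor the share of tumour in a library. Each library was taken as 1 mouse because the labels hold replicate numbers and no animal identifiers, so the p-values measure the spread between these libraries. Markers of oral epithelium were present in each library, with a summed level of 18944 to 52833 FPKM after scaling.

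Corticosterone, the main glucocorticoid of mice, crosses the cell membrane and binds the glucocorticoid receptor, which waits in the cytoplasm in a complex with heat shock chaperones and immunophilins. The bound receptor moves to the nucleus and switches on genes through paired short sites in DNA, or dampens inflammatory genes by hindering other factors. The HSD11B enzymes act before the receptor: the enzyme encoded by Hsd11b2 oxidises corticosterone to an inactive 11-keto form, and the one encoded by Hsd11b1 mainly makes it active again. In epithelia that move sodium, inactivation keeps glucocorticoids away from the mineralocorticoid receptor. The question here was whether the mRNA levels of these genes differed between GA-treated and vehicle-treated tongues.

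Promoter sequences are shown for 3 genes. Sgk1 was chosen because it holds a complete receptor element. The metallothionein genes Mt1 and Mt2 are neighbours on chromosome 8. They were chosen because the 250 bases before their annotated starts hold unequal numbers of matches to the loose metal response pattern described below. Those numbers depend on the annotated start used. The sequences are from RefSeq on GRCm38.p6 and cover the 250 bases before an annotated start, which were found for 8 of 10 genes in 15 promoters. Both strands were searched for ACANNNTGT, the core of the glucocorticoid response element. They were also searched for TGCNCNC, a loose pattern that includes TGCACNC and TGCGCNC. These narrower forms are the core of the metal response element that the zinc sensor MTF1 binds. Capitals mark ACANNNTGT in Sgk1 and TGCNCNC in Mt1 and Mt2, so not every marked stretch of Mt2 is a metal response core.
Sgk1 (chr10:21993640-21993889, plus strand): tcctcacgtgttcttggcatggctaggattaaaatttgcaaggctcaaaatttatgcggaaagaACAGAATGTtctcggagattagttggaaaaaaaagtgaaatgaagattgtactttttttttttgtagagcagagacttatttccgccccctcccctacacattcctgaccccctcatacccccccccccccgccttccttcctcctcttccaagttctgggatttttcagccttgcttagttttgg
Mt1 (chr8:94178839-94179088, plus strand): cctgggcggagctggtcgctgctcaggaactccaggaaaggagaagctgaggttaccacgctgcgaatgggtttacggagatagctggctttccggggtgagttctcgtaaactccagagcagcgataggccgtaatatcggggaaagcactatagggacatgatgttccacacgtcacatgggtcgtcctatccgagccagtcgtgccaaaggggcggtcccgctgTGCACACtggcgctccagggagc
Mt2 (chr8:94172368-94172617, plus strand): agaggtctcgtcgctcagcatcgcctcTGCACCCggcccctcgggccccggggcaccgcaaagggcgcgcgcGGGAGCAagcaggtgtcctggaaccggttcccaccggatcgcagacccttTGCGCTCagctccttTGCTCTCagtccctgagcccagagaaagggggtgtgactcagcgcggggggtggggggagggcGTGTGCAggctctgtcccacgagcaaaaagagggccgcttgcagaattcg

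Of 6 annotated Sgk1 promoters, the one printed holds the full element and the other 5 do not. Its motif begins 186 bases before the start and has AGA before it and TCT after it, which makes the full palindromic element that 3 of 32851 RefSeq promoters held. The shorter core was in 5.84% of those promoters and in 3 of the 15 found for these genes, of which 2 belong to Sgk1 and 1 to Mt1. The Mt2 promoter held 5 matches to TGCNCNC, at 223, 178, 128, 113 and 50 bases before the start, whereas the Mt1 promoter held 1, at 23 bases. At least 1 such match was in 44.4% of promoters and at least 5 were in 0.344%. In the narrower forms TGCACNC and TGCGCNC, Mt2 held 3 cores and Mt1 held 1, and 1.26% of promoters held at least 3. A motif match describes the letters of this window and no binding was measured. Bases after an annotated start were not searched, so cores there are not counted for either metallothionein gene. The counts describe these windows and do not show that Mt1 has fewer metal response cores than Mt2.

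Expression of the 10 genes spanned 3 orders of size on the scaled FPKM scale, which divides by the annotated exon length of each gene. The order of genes therefore depends on that annotation. For Mt2, 73.5% of the exon bases overlap a predicted gene on the other strand. Averaged over 12 libraries, the order was Mt1 (172), Sgk1 (29.4), Mt2 (21.6), Klf9 (12.7), Nr3c1 (7.23), Tsc22d3 (5.78), Fkbp5 (1.92), Hsd11b1 (1.71), Nr3c2 (1.26) and Hsd11b2 (0.135). Ranges over libraries were separate between Mt1 and Sgk1 and between Nr3c2 and Hsd11b2, and overlapped for the other neighbours. Sgk1 was above Mt2 in 9 of 12 libraries and Nr3c1 above Tsc22d3 in 10 of 12. Hsd11b1 was above Nr3c2 in 4 of 12, so the order of that pair rested on a few libraries.

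**Figure D1:**
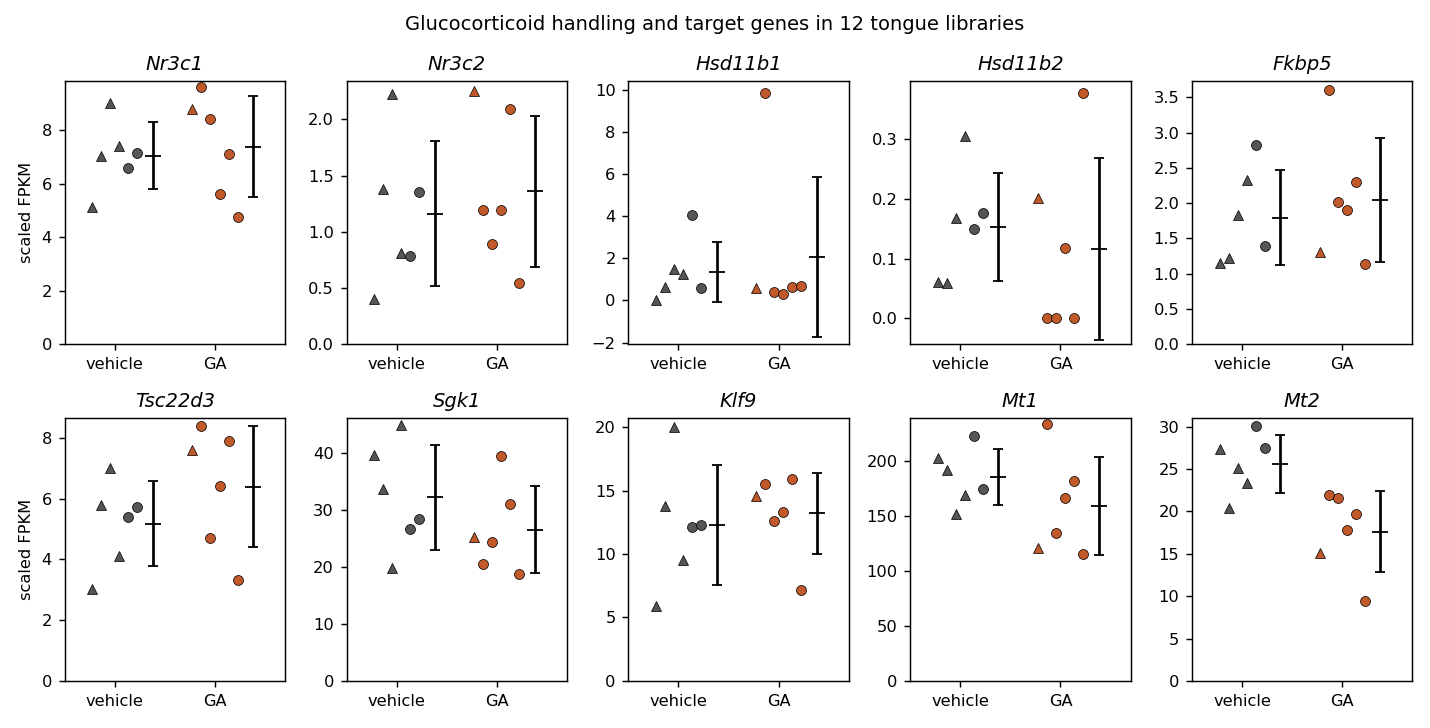
Scaled FPKM of the 10 genes, 1 point per library, for 6 vehicle (grey) and 6 GA (orange) libraries, with the mean and SD of each group as a bar beside the points and triangles for libraries with reads on Y-linked genes. The groups overlap for each gene, Mt2 included, whose GA points lie at 9.38 to 22.0 against 20.4 to 30.02 in vehicle.

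With limma on log2(scaled FPKM + 0.1), 0 of 10 genes were called at an adjusted p below 0.1 with a log2 fold change of 0.58 or more in size, as were 0 of 16852 genes over the whole table (0.0%). Each of the 10 had an adjusted p of 0.9995. The fold change was above 0 for 6 genes and below 0 for 4, with a median of 0.07 on the log2 scale, beside -0.012 and 47.6% above 0 over all genes tested. At an unadjusted p below 0.05 limma gave 1 of 10, Mt2, beside 367 genes or 2.18% of all. In voom on reads recovered from the FPKM values 335 genes had such a p. The exact permutation test of each gene over the 924 ways to divide the libraries gave 1 of 10 below 0.05, beside 2.4% of all genes, and could reach no p below 0.00216. A log2 fold change of 0.58 or more in size was found for 1 of 10 genes and for 8.53% of all.

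**Figure D2:**
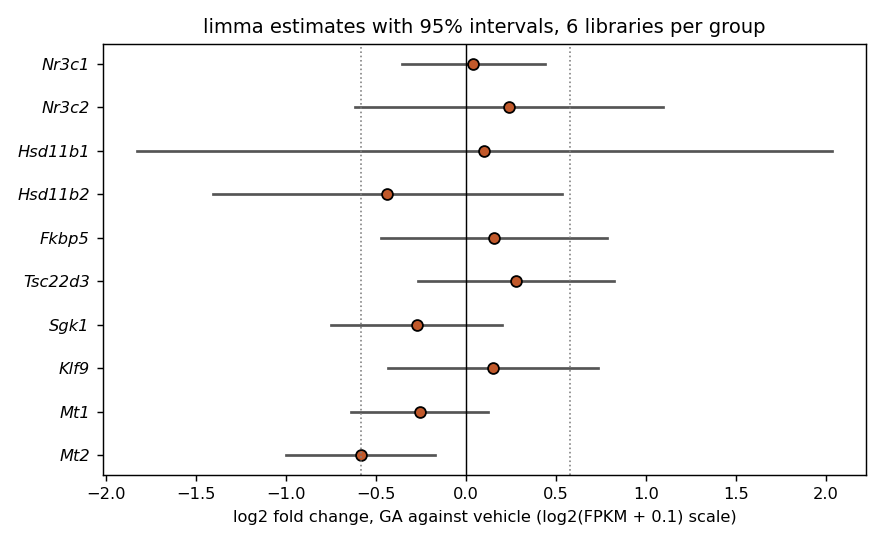
Log2 fold change of GA against vehicle on the log2(scaled FPKM + 0.1) scale with its 95% interval from limma, for 6 libraries per group, and dotted lines at the fold change limit of 0.58 in each direction. The interval of Mt2 runs from -0.999 to -0.17, and the other 9 intervals hold 0.

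Nr3c1, which encodes the glucocorticoid receptor, had the narrowest interval of the 10 genes after Mt1. Its level ran from 5.13 to 9.04 scaled FPKM in vehicle libraries (median 7.09) and from 4.77 to 9.61 in GA libraries (median 7.77), on 717 to 1724 reads per library. The groups shared most of this range, and the GA group held both the lowest and the highest library. Means were 7.06 ± 1.27 (SD, n = 6) and 7.39 ± 1.90 (SD, n = 6). The log2 fold change was 0.04 (SE 0.18, 95% interval -0.36 to 0.44, exact permutation p = 0.831), which leaves a 1.36-fold higher or a 0.782-fold level within the interval.

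Nr3c2 (chr8:76899442-77245012, plus strand, GRCm38, as for the positions that follow) encodes the mineralocorticoid receptor and was lower and more variable. It ranged from 0.399 to 2.23 scaled FPKM in vehicle libraries (median 1.08) and from 0.543 to 2.25 in GA libraries (median 1.19). Both groups thus spanned nearly the same interval, with means of 1.16 ± 0.644 (SD, n = 6) and 1.36 ± 0.674 (SD, n = 6). The log2 fold change was 0.24 (SE 0.40, 95% interval -0.62 to 1.10, exact permutation p = 0.578), and it ran from 0.0057 without vehicle library 1 to 0.45 without vehicle library 3. The level of Nr3c1 was 4.06 to 12.8 times that of Nr3c2 in vehicle libraries (median 6.85) and 3.40 to 9.46 times in GA libraries (median 6.39). The glucocorticoid receptor gene was therefore the more expressed of the pair in 12 of 12 libraries.

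Hsd11b2 (chr8:105518755-105523988, plus strand), the inactivating enzyme, was near the limit of detection. In scaled FPKM the vehicle libraries 1 to 6 held 0.0602, 0.0587, 0.168, 0.306, 0.150 and 0.177, and the GA libraries held 0.202, 0, 0, 0.118, 0 and 0.377. These values rest on 2, 2, 6, 13, 6 and 7 reads in vehicle and on 8, 0, 0, 5, 0 and 18 reads in GA. GA library 6 was thus the highest of the 12 while 3 other GA libraries had 0 reads, which allows a level of up to 0.0672 to 0.0798 scaled FPKM at a floor of 3 reads per library. Summed over libraries there were 36 reads among 124144599 in vehicle and 31 among 139062486 in GA, and since reads are not independent molecules, counting alone understates the error of these sums.

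The group means of Hsd11b2 were 0.153 ± 0.0912 (SD, n = 6) with vehicle and 0.116 ± 0.152 (SD, n = 6) with GA, and 4 of 6 GA libraries lay below the vehicle median. Its log2 fold change was -0.43 (SE 0.45, 95% interval -1.40 to 0.53, limma p = 0.349, exact permutation p = 0.355), and it was -0.72 without GA library 6 and -0.27 without any 1 of the GA libraries with 0 reads. In fold terms this is 0.740, with an interval of 0.378 to 1.45. The size depended on how 0 reads were treated, with -1.60 (95% interval -3.83 to 0.63) at a pseudocount of 0.01, -0.05 at a pseudocount of 1 and -1.51 (-3.47 to 0.45) in voom, and no interval was free of 0. A difference in Hsd11b2 mRNA between the groups was not detectable at this depth.

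Hsd11b1 (chr1:193221634-193264075, minus strand), the activating enzyme, had the widest spread of the 10 genes. Vehicle libraries 1 to 6 held 0.0130, 0.658, 1.48, 1.26, 4.04 and 0.575 scaled FPKM, on 1, 52, 123, 125, 376 and 53 reads. The GA libraries held 0.575, 9.84, 0.424, 0.293, 0.618 and 0.702, on 53, 974, 44, 29, 54 and 78 reads. GA library 2 stood above the other 11 and vehicle library 1 below them, a span of 759-fold, and the SD of the log2 level was at the 96.9th percentile of all genes tested. Means were 1.34 ± 1.42 (SD, n = 6) with vehicle and 2.07 ± 3.81 (SD, n = 6) with GA, whereas medians were 0.961 and 0.597, and 5 of 6 GA libraries did not reach the vehicle median. The log2 fold change was 0.10 (SE 0.89, 95% interval -1.82 to 2.03, exact permutation p = 0.920). Without GA library 2 it was -0.57, and without vehicle library 5 it was 0.55, so single libraries set its sign.

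**Figure D3:**
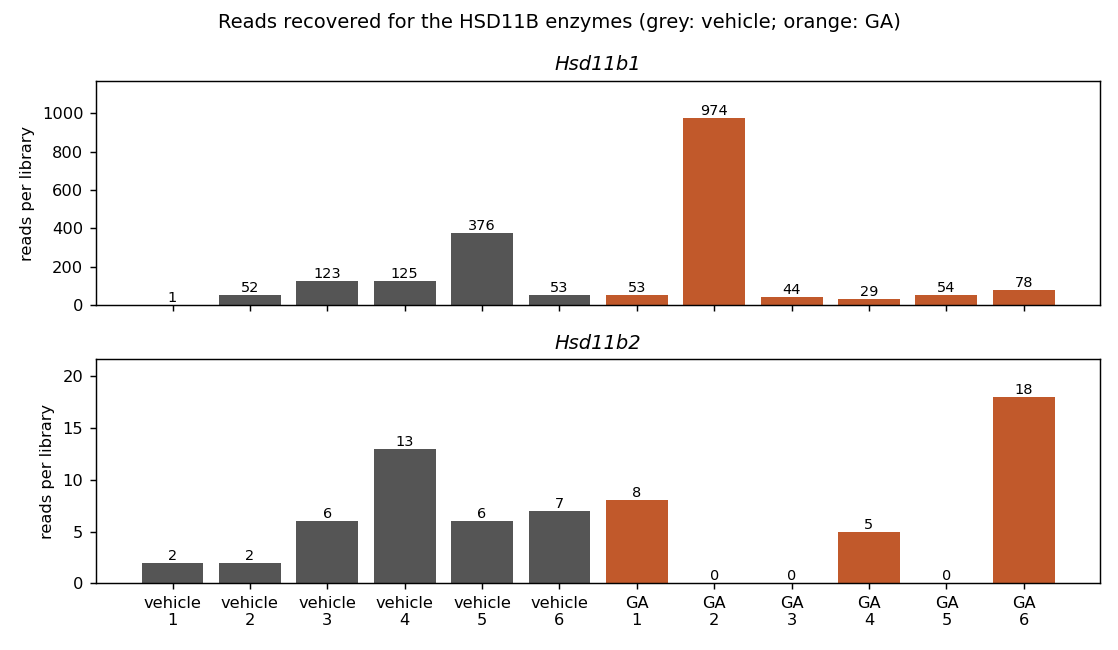
Reads per library for Hsd11b1 (upper panel) and Hsd11b2 (lower panel) in 6 vehicle (grey) and 6 GA (orange) libraries, recovered from the FPKM values, with the number of reads printed above each bar. Hsd11b1 has 974 reads in GA library 2 and 1 in vehicle library 1, and Hsd11b2 has at most 18 reads in any library and 0 in 3 GA libraries.

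The high Hsd11b1 values came from libraries that also held gland RNA. Lipf, a lipase of the lingual glands, was at 22249 and 8228 scaled FPKM in vehicle libraries 3 and 5 and at 26031 in GA library 2, and at 0.495 or less in the other 9. Hsd11b1 was at 1.48 to 9.84 scaled FPKM in those 3 libraries and at 0.0130 to 1.26 (median 0.575) in the other 9. Over 12 libraries it also followed the mean log2 level of 10 fibroblast marker genes (Pearson r = 0.719, permutation adjusted p = 0.0431) but the rank correlation was lower (Spearman rho = 0.650, permutation adjusted p = 0.182). The same held for 10 macrophage markers (r = 0.737 and rho = 0.5804, permutation adjusted p = 0.0361 and 0.228). Whether gland, fibroblast or macrophage content accounts for the Hsd11b1 values was not tested. The mean log2 level of neutrophil markers was 3.01, 4.08 and 2.56 in vehicle libraries 4 and 5 and GA library 2. It was 0.83 or less in the other 9. Vehicle libraries 4 and 5 and GA library 2 hold Hsd11b1 at 1.26, 4.04 and 9.84 scaled FPKM. Vehicle library 3, with Hsd11b1 at 1.48, had a neutrophil marker level of 0.83. With a neutrophil term the log2 fold change of Hsd11b1 was 1.02 and with a gland term 0.59, and neither was called. In bulk tissue, fewer cells of a type and less RNA per cell cannot be told apart.

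The log2 level of Hsd11b2 minus that of Hsd11b1 describes the balance of inactivation and activation at the mRNA level. It lay between -4.05 and 0.50 in vehicle libraries and was -1.16, -0.85 and -0.75 in GA libraries 1, 4 and 6. The other 3 GA libraries had 0 reads of Hsd11b2, so their values are set by the pseudocount and the groups were not compared on this measure. The pseudocount of 0.1 also shapes vehicle libraries 1 and 2, with Hsd11b2 at 0.0602 and 0.0587 scaled FPKM. In vehicle library 1 Hsd11b1 was below it as well, at 0.0130. The activating enzyme had the higher mRNA level in 11 of 12 libraries, and vehicle library 1, with 1 read of Hsd11b1, was the exception. H6pd, which supplies the cofactor for Hsd11b1, averaged 5.2 ± 2.41 and 4.55 ± 1.50 scaled FPKM in the vehicle and GA groups (SD, n = 6), a log2 fold change of -0.10 (SE 0.32, exact permutation p = 0.751).

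Fkbp5 (chr17:28399094-28517527, minus strand) encodes an immunophilin that lowers the affinity of the receptor for hormone and is among the genes most used as a readout of its activity. Its level ran from 1.15 to 2.83 scaled FPKM in vehicle libraries (median 1.61) and from 1.13 to 3.61 in GA libraries (median 1.96). The ranges coincided apart from GA library 2, the highest of the 12. The log2 fold change was 0.16 (SE 0.29, 95% interval -0.47 to 0.79, exact permutation p = 0.604). The 3 highest values, 2.32, 2.83 and 3.61, were in the libraries with high neutrophil markers (vehicle 4, vehicle 5 and GA 2). GA library 5 followed at 2.31, with the lowest mean log2 level of these markers among the 12 libraries (-0.19). With a neutrophil term the log2 fold change of Fkbp5 was 0.42. Its level rose with that of Hsd11b1 over 12 libraries by Pearson's r (0.753, permutation adjusted p = 0.0319 over 45 pairs) and not by Spearman's rho (0.497, adjusted p = 0.518), and r was 0.498 without the 2 libraries farthest from the median of Hsd11b1.

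Tsc22d3 (chrX:140539528-140600659, minus strand) encodes GILZ, a leucine zipper protein that mediates part of the anti-inflammatory action of glucocorticoids. It ran from 3.03 to 7.001 scaled FPKM in vehicle libraries (median 5.56) and from 3.33 to 8.40 in GA libraries (median 7.01). It exceeded the median of the vehicle group in 4 of 6 GA libraries, and the 2 groups overlapped over most of their range. Means were 5.18 ± 1.40 and 6.39 ± 1.996 (SD, n = 6), with a log2 fold change of 0.28 (SE 0.25, 95% interval -0.27 to 0.82, exact permutation p = 0.325), and 0.14 without vehicle library 1 to 0.45 without GA library 6.

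Klf9 (chr19:23141226-23168134, plus strand), a Krüppel-like transcription factor that keratinocytes induce in response to glucocorticoids, was at 5.92 to 20.0 scaled FPKM in vehicle libraries (median 12.2) and at 7.18 to 15.9 in GA libraries (median 14.0). It exceeded the median of the vehicle group in 5 of 6 GA libraries, and GA library 6 was far below the other 5. The log2 fold change was 0.15 (SE 0.27, 95% interval -0.43 to 0.73, exact permutation p = 0.619).

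Sgk1 (chr10:21882184-21999903, plus strand) encodes the serum and glucocorticoid regulated kinase, which slows the removal of epithelial sodium channels, and 1 of its 6 annotated promoters holds the full element shown above. It ran from 19.8 to 44.98 scaled FPKM in vehicle libraries (median 31.1) and from 18.8 to 39.5 in GA libraries (median 24.9). It did not reach the median of the vehicle group in 4 of 6 GA libraries, with the groups overlapping throughout. Means were 32.3 ± 9.16 and 26.6 ± 7.65 (SD, n = 6), and the log2 fold change was -0.27 (SE 0.22, 95% interval -0.75 to 0.20, exact permutation p = 0.268). Of the 4 targets outside the metallothioneins, 3 had estimates above 0 and Sgk1 had one below 0, and the 4 intervals held 0.

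The metallothioneins are small cysteine-rich proteins that bind zinc and copper, and glucocorticoids, zinc and oxidative stress induce both Mt1 and Mt2. Mt2 (chr8:94172664-94173568) and Mt1 (chr8:94179082-94180327, plus strand for both) are neighbours. Mt2 was at 27.4, 20.4, 25.2, 23.3, 30.02 and 27.4 scaled FPKM in vehicle libraries 1 to 6 and at 15.05, 22.0, 21.6, 17.8, 19.7 and 9.38 in GA libraries 1 to 6. Each of the 6 GA libraries was below the vehicle median of 26.3, a pattern that 3.23% of all genes tested shared, and no member had all 6 GA libraries above it, as 2.94% of genes did. The groups met where vehicle library 2 (20.4) lay below GA libraries 2 and 3, and groups without any overlap were found for 0.0771% of all genes.

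Group means of Mt2 were 25.6 ± 3.41 with vehicle and 17.6 ± 4.77 with GA (SD, n = 6), on 218 to 375 and 139 to 300 reads. The log2 fold change was -0.58 (SE 0.19, 95% interval -0.999 to -0.17), a fold of 0.667. Its limma p of 0.00961 was the 48th smallest of 16852 and became 0.9995 after adjustment over all genes, and the exact permutation p was 0.00649. The difference in means was thus large beside its standard error for this gene taken alone and failed the correction, and the groups overlapped. Leaving out GA library 6, the lowest, gave -0.42, which is inside the fold change limit. On the other strand the predicted gene Gm45774 overlaps 73.5% of the Mt2 exon bases, and since the sources used here do not say whether counting used strand, reads from the 2 genes may not have been told apart.

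Mt1 was at 151 to 223 scaled FPKM in vehicle libraries (median 183) and at 115 to 233 in GA libraries (median 150). It did not reach the median of the vehicle group in 5 of 6 GA libraries, and GA library 2 was the highest of the 12. Means were 185 ± 25.6 and 159 ± 44.7 (SD, n = 6), with a log2 fold change of -0.26 (SE 0.18, 95% interval -0.64 to 0.13, limma p = 0.171, exact permutation p = 0.182). The level of Mt1 was 6.01 to 9.36 times that of Mt2 in vehicle libraries and 6.23 to 12.3 times in GA libraries. This ratio depends on the annotated exon lengths, 1246 bases for Mt1 and 588 for Mt2, and on how reads in the Gm45774 overlap were counted. Over 12 libraries the pair had a Pearson r of 0.708 (permutation adjusted p = 0.0550) and a Spearman rho of 0.594 (adjusted p = 0.346), and r was 0.289 without the 2 libraries farthest from the median of Mt1.

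The libraries with and without reads on Y-linked genes were unevenly divided, with 4 of 6 vehicle libraries and 1 of 6 GA libraries in the first class. Mt2 was at 20.4 to 27.4 scaled FPKM in the 4 vehicle libraries with such reads and at 15.05 in the 1 GA library. In libraries without them it was at 27.4 and 30.02 in the 2 vehicle libraries and at 9.38 to 22.0 in the 5 GA libraries. The first class holds a single GA library, so the comparison inside it has no replicates on that side. A term for Y-linked reads moved its log2 fold change to -0.70 and the fit on the 7 libraries without such reads gave -0.72, with an unadjusted p of 0.0594 from limma across all genes. For Hsd11b1 and Fkbp5 the same term turned the estimate to -0.43 and -0.06, and the other 7 genes kept their direction.

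The levels of Klf9, Tsc22d3 and Nr3c2 moved together from library to library. Klf9 and Tsc22d3 had a Pearson r of 0.923 (permutation p = 2e-05, adjusted 0.0009 over 45 pairs) and a Spearman rho of 0.923 (permutation p = 4e-05, adjusted 0.0018) over 12 libraries, with r of 0.980 within vehicle and 0.938 within GA. Klf9 and Nr3c2 had r of 0.903 and rho of 0.860 (permutation adjusted p = 0.0009 and 0.0169). Without the 2 libraries farthest from the median, r was 0.797 for Tsc22d3 with Klf9 and 0.783 for Nr3c2 with Klf9. These were the 2 of 45 pairs that passed an adjusted p below 0.05 by both measures, while 5 passed by Pearson's r.

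Muscle content moved with the same genes. The mean log2 level of 12 skeletal muscle marker genes was lowest in vehicle library 1 (4.82) and GA library 6 (5.42) and highest in vehicle library 3 (8.10), and the summed level of the list ran from 1497 to 12764 scaled FPKM in vehicle (median 4507) and from 2186 to 9609 in GA (median 7007). Of 90 relations between 10 genes and 9 lists (6 cell types, 2 clock phases and immediate early genes), 5 passed an adjusted p below 0.05 by both measures. Klf9 (r = 0.895, rho = 0.853), Nr3c1 (r = 0.860, rho = 0.846) and Tsc22d3 (r = 0.812, rho = 0.811) rose with the muscle list, with permutation adjusted p-values of 0.0099, 0.012 and 0.0216 for r and 0.0243, 0.0243 and 0.0428 for rho. Without the 2 libraries farthest from the median, these r were 0.771, 0.840 and 0.792. Klf9 (r = -0.811, rho = -0.881) and Tsc22d3 (r = -0.824, rho = -0.846) fell with the oral epithelium list. Nr3c2 with muscle had r of 0.765 and rho of 0.783 (permutation adjusted p = 0.0361 and 0.0649). By Pearson's r 13 of 90 relations passed. They include the endothelium list with Klf9 (r = 0.834, rho = 0.755), Tsc22d3 (r = 0.724, rho = 0.699) and Nr3c2 (r = 0.710, rho = 0.594). For these the permutation adjusted p-values were 0.012, 0.0361 and 0.0431 for r and 0.0811, 0.148 and 0.220 for rho. Hsd11b2, Fkbp5, Sgk1, Mt1 and Mt2 passed with no list by either measure, the clock and immediate early lists included. Gland, duct, adipocyte and neutrophil levels fell into separate clusters of libraries, so no pooled r was computed for them.

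**Figure D4:**
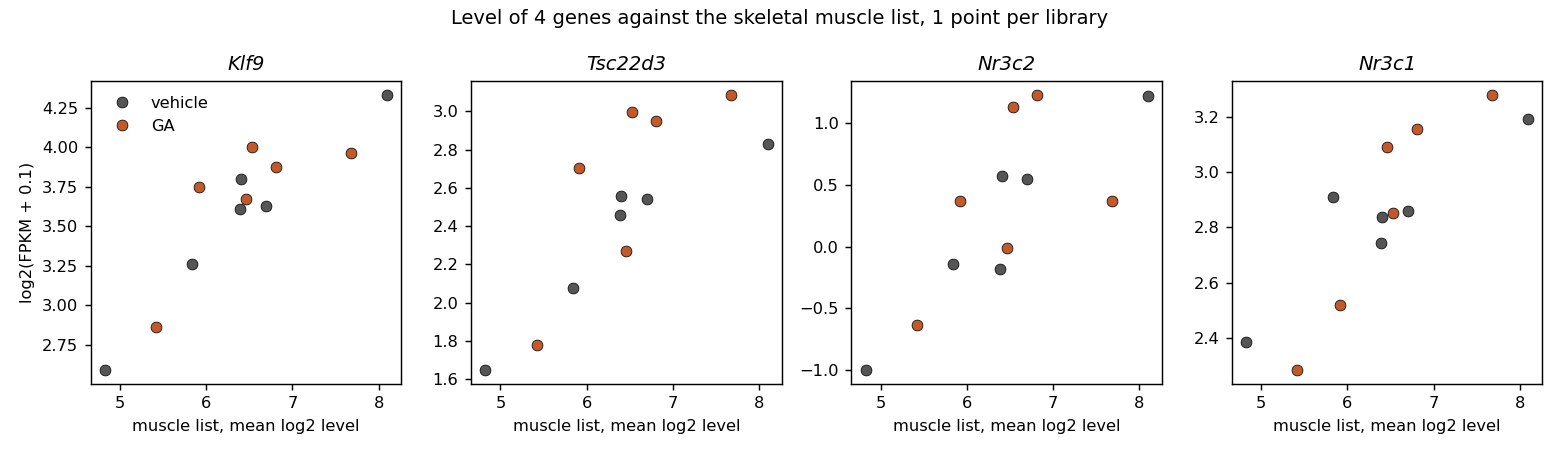
Log2(scaled FPKM + 0.1) of Klf9, Tsc22d3, Nr3c2 and Nr3c1 against the mean log2 level of 12 skeletal muscle marker genes, 1 point per library, grey for 6 vehicle and orange for 6 GA libraries. Klf9 rises with the muscle list over 12 libraries (r = 0.895), with vehicle library 1 at the lower left in each panel but that of Nr3c1, where GA library 6 is lowest.

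The genes most like each member by Spearman's rho over 12 libraries, among 12166 genes whose mean was 1 FPKM or more, are given as a description. For Klf9 they were Phka1 (1), Actn2 (0.993) and Amot (0.986), and for Nr3c2 Camk2g (0.986), Asb18 and 1700123M08Rik (both 0.979). Tsc22d3 was closest to Usp13 (0.958), Chrnb1 and Fhl1 (both 0.951), and Nr3c1 was close to Slc25a34 (0.965) and Fuom (0.930). Phka1, Actn2, Chrnb1 and Camk2g encode a phosphorylase kinase subunit, a Z-disc actinin, an acetylcholine receptor subunit and a calmodulin kinase. Hsd11b1 followed Gm13889 (0.993), Timp1 (0.979) and Agr2 (0.965), of which Timp1 encodes a protease inhibitor and Agr2 a disulfide isomerase of secretory epithelia. Hsd11b2 followed Dnmbp (0.944), Mcoln1 (0.923) and Sh3d21 (0.894). For Sgk1 the closest were Rcc2 (0.958), Siah1a (0.951) and Metap2 (0.944), and for Fkbp5 Cdk11b (0.846), Dhps (0.839) and Itpripl2 (0.832). Mt2 was closest to Cdk2ap1rt (0.930), Capzb and Ahr (both 0.895), and Mt1, with the loosest company, to Rbm47, Slc5a8 (both 0.804) and Cmas (0.783).

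The chaperones of the receptor complex had higher mean levels than Nr3c1, from 9.54 scaled FPKM for Ppid to 505 for Hsp90ab1 in the vehicle group, and 0 of them were called. Among 12 chaperones and immunophilins of the receptor complex, 10 were higher and 2 lower with GA, none at an unadjusted limma p below 0.05, with a median log2 fold change of 0.07. Hspa8, which hands the receptor to HSP90, went from 236 ± 12.9 to 279 ± 47.8 scaled FPKM (SD, n = 6, log2 fold change 0.23, exact permutation p = 0.0671). Stip1, the co-chaperone that joins HSP70 and HSP90, and Hsp90aa1 had log2 fold changes of 0.16 and 0.24. Of 12 coregulators, 4 were higher and 8 lower, and Nrip1, a corepressor of nuclear receptors, was lower at an unadjusted p (7.84 ± 1.44 to 5.92 ± 1.53 scaled FPKM, SD, n = 6, log2 fold change -0.42, limma p = 0.0306, exact permutation p = 0.0455). The coactivator Ncoa1 was at -0.19 and the corepressor Ncor1 at 0.07.

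Of 19 genes that make, carry or clear the steroid 10 passed the filter, with 4 higher and 6 lower, a median of -0.09 and no unadjusted limma p below 0.05. Star, which delivers cholesterol to mitochondria, averaged 0.678 ± 0.118 and 0.893 ± 0.299 scaled FPKM in the vehicle and GA groups (SD, n = 6, log2 fold change 0.32, exact permutation p = 0.0996), and the reductases Akr1d1 and Srd5a3 had log2 fold changes of -1.10 and -0.16. Cyp11a1 and Cyp11b1, which begin and end corticosterone synthesis, were at no more than 0.288 and 0.131 scaled FPKM in any library, and Hsd3b1, Hsd3b6 and Serpina6 were listed at 0 in each library.

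The wider set of glucocorticoid-induced genes held 28 tested genes, of which 11 were higher and 17 lower with GA (median log2 fold change -0.12). Dusp1, a phosphatase that ends MAP kinase signalling, was at 16.2 to 56.1 scaled FPKM in vehicle libraries (median 30.3) and at 13.1 to 22.8 in GA libraries (median 17.1), and 6 of 6 GA libraries did not reach the vehicle median. Its log2 fold change was -0.82 (SE 0.28, limma p = 0.0126, exact permutation p = 0.0216). Nfkbia, the inhibitor of NF-kB, went from 62.2 ± 18.8 to 44.8 ± 10.4 scaled FPKM (SD, n = 6, log2 fold change -0.46, limma p = 0.0384, exact permutation p = 0.0498). Errfi1, a feedback inhibitor of the EGF receptor, had a log2 fold change of -0.37 (exact permutation p = 0.121) and 6 of 6 GA libraries did not reach the vehicle median. That pattern was found in 3.23% of all genes tested. Dusp1, Nfkbia and Errfi1 also respond to growth factor and stress signals, whose part was not tested. Of 15 immediate early genes, 14 were lower with GA (median -0.22, 1 at an unadjusted limma p below 0.05). Clock genes that peak with Per and Dbp, some of which glucocorticoids also induce, were higher in 8 of 10 cases (median 0.48) and those that peak with Bmal1 lower in 4 of 5 (median -0.25). The part of collection time or handling in these values was not tested, and the adjusted p of each gene was above 0.99.

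Inflammatory genes that glucocorticoids repress had 1 of 17 tested genes higher and 16 lower with GA, a median log2 fold change of -1.08, and 0 at an unadjusted limma p below 0.05. Mmp13, a collagenase, had medians of 1.27 and 0.373 scaled FPKM in the vehicle and GA groups (log2 fold change -2.31, SE 1.23, exact permutation p = 0.128), Cxcl5 had -2.70 (SE 1.50) and Il1b -1.65 (SE 1.09). In Il1b the vehicle libraries spanned 0.784 to 63.5 scaled FPKM. Neutrophil markers went in the same direction, with 11 of 11 tested lower with GA and 0 at an unadjusted limma p below 0.05. Their summed level was 1183 to 2690 scaled FPKM in vehicle (median 1937) and 299 to 1887 in GA (median 1587). Their part in these values was not tested.

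Targets of the mineralocorticoid receptor and of Sgk1 in sodium transport had 5 of 12 tested genes higher and 7 lower (median -0.07). Scnn1g, the gamma subunit of the epithelial sodium channel, went from 3.33 ± 1.23 to 2.14 ± 0.769 scaled FPKM (SD, n = 6, log2 fold change -0.61, SE 0.27, limma p = 0.0432, exact permutation p = 0.0671). The kinase gene Stk39 was at -0.29 and the sodium pump subunit Atp1b1 at 0.62. The alpha and beta channel subunits Scnn1a and Scnn1b had log2 fold changes of -0.04 and -0.27.

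The other metallothioneins and the zinc transporters had 5 of 12 tested genes higher and 7 lower (median -0.05, 0 at an unadjusted p below 0.05). Mt4, the metallothionein of stratified epithelium, was the most expressed of the family with averages of 1453 ± 821 and 1372 ± 637 scaled FPKM in the vehicle and GA groups (SD, n = 6, log2 fold change -0.08, exact permutation p = 0.855). Mt3 was at 17.4 ± 7.63 and 14.99 ± 9.70 (log2 fold change -0.29). Mtf1, the metal sensor for the cores printed above, was at 3.49 ± 0.562 and 3.49 ± 0.302 scaled FPKM. The zinc transporter genes Slc39a4, Slc30a2 and Slc39a1 had log2 fold changes of -0.75 (exact permutation p = 0.0714), 0.37 and -0.18. Relatives of the other members also gave 0 called genes, with 5 of 14 higher and 9 lower (median -0.03), among them Tsc22d1 (0.22), Tsc22d2 (-0.31) and Klf16 (0.23).

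**Figure D5:**
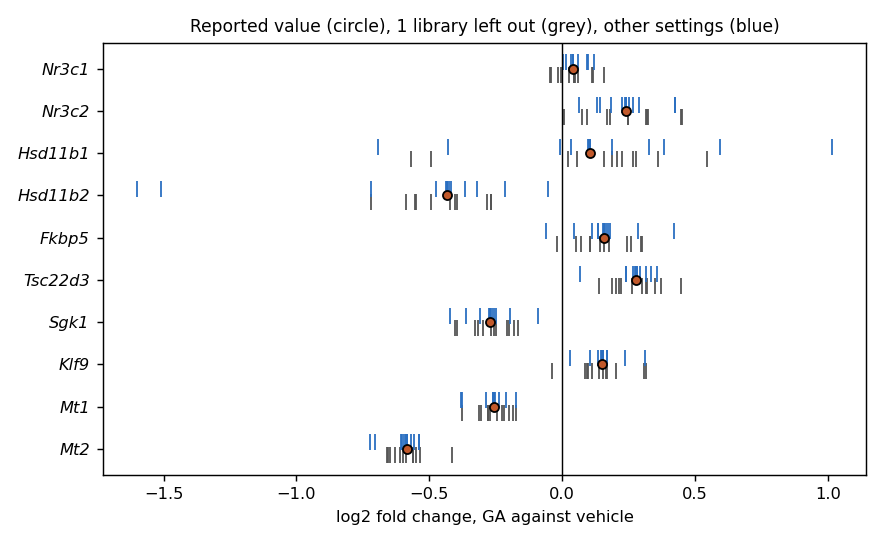
Log2 fold change of GA against vehicle for the 10 genes as reported (circle), with 1 library left out in turn (grey) and under the other settings (blue). Mt2 stays between -0.72 and -0.42 and Mt1 and Sgk1 stay below 0, whereas Hsd11b1 ranges from -0.69 to 1.02.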

How the data were processed

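Bulk RNA-seq was deposited for tongue RNA of 6 vehicle and 6 GA mice, 1 file per library. Alignment by the authors used HISAT2 and mm10, their gene counts came from featureCounts on reads with 1 unique position, and they deposited FPKM, in which reads are divided by library total and exon length. Versions of these tools and the strand setting are not given in the sources used here. Of 55463 rows, 22965 (41.4%) had no gene name and were left out with 16.2% to 25.5% of the FPKM of a library.

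Exon lengths of GENCODE M21 on GRCm38 (the same assembly as mm10), less a constant of 17.0 to 24.2 bases fitted per library, turned 97.7% to 98.4% of the low values of a library into whole reads within 0.02. Totals so recovered were 18040278 to 21770366 reads in vehicle libraries and 21237287 to 25192512 in GA libraries. The fitted constant rose with the library total, from 17.0 bases at 18040278 reads to 24.2 at 25192512 reads. Its origin is not given in the sources used here. Spearman correlations between libraries of a group were 0.929 to 0.955. All intervals cover the spread between libraries, and read floors (3 reads) cover counting error only.

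Scaling used a trimmed mean of the log ratios (trims of 30% and 5%, factors 0.896 to 1.07). Genes whose mean was 0.1 FPKM or more were compared in limma 3.58.1 (R 4.3.3, trended empirical Bayes) on log2(scaled FPKM + 0.1), since FPKM are not counts, a scale that understates changes of low genes, with Benjamini-Hochberg adjustment over 16852 genes. The study's limits were kept (adjusted p below 0.1, log2 fold change of 0.58 or more in size). Exact two-sided permutation tests over all divisions of the libraries used numpy 2.4.6. Correlations across libraries used 100000 permutations with adjustment over their family, with ranks from scipy 1.17.1. Fits were tested on simulated data. The members and the gene lists were chosen with earlier results of these data known, and marker lists came from general knowledge. Lor, Muc19 and Trac were not matched by name. The text names the 10 members, the 3 genes of each pathway list with the smallest limma p and the 3 genes most like each member (1 of them is not reported here), and, chosen after their values were seen, H6pd, Ppid, Hsp90ab1, Scnn1a, Scnn1b, Mt3, Mt4, Mtf1, Cyp11a1, Cyp11b1, Hsd3b1, Hsd3b6, Serpina6, Lipf, Gm45774 and Gm25290. Alternatives covered the pseudocount, filter, scaling, moderation, voom on recovered reads, covariates and left-out libraries, and leaving out 3 libraries with high Lipf was added after seeing the data.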

Additional observations from a re-analysis of the deposited data

Results flagged for a closer look

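Among the 20 groups of 6 libraries formed by 10 genes and 2 treatments, 2 held a library whose gap to its nearest neighbour was a larger share of the group's range than Dixon's critical value for 6 values, where chance gives about 1 in 20 groups. Hsd11b1 in GA library 2 was the highest of its group with 9.84 scaled FPKM and a ratio of 0.779. Klf9 in GA library 6 was the lowest of its group with 7.18 scaled FPKM and a ratio of 0.709.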

How the results depend on the processing

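No member was called under any of 28 alternatives, and 267 of 279 member values kept their direction. The count of genes called stayed at 0 in 27 alternatives and was 0 to 1 with a library left out. Gm25290 was the 1 gene, called without vehicle library 4 and named after its value was seen, and the cause was not tested. With unadjusted p below 0.05 in place of the limits the count was 367, and over the alternatives it ran from 210 (mean of at least 1 FPKM) to 869 (without GA library 6), with 558 without a filter, 561 under the gland term, 740 under the skeletal muscle term and 808 without vehicle library 3. The direction turned for Hsd11b1 with the sex term (-0.43), in libraries without Y-linked reads (-0.69) and with the skeletal muscle term (-0.0087), and for Fkbp5 with the sex term (-0.059). With each library left out, the log2 fold change ran from -0.045 to 0.16 for Nr3c1, from -0.57 to 0.55 for Hsd11b1, from -0.018 to 0.30 for Fkbp5 and from -0.039 to 0.32 for Klf9, with a change of sign in each. The other 5 members kept their direction, over 0.0057 to 0.45 for Nr3c2, -0.72 to -0.27 for Hsd11b2, 0.14 to 0.45 for Tsc22d3, -0.40 to -0.17 for Sgk1 and -0.38 to -0.17 for Mt1. Mt2 ran from -0.66 to -0.42 and had an unadjusted limma p below 0.05 in 27 of 28 alternatives. Without the 3 libraries with high Lipf the log2 fold change was -0.60 for Mt2 and -0.21 for Hsd11b2. Hsd11b2 gave no value with a filter at a mean of 1 FPKM, and its 0 to 18 reads per library limit what can be seen.

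Replicate numbers did not pair the libraries, with correlations of -0.37 to 0.08 between deviations of same-numbered libraries, and none of the 6 correlated best with its own number. The fit with a replicate block called 0 genes and gave 230 at an unadjusted limma p below 0.05. The value for Mt2 with the block was -0.58, with an unadjusted p of 0.0237 from limma across all genes.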
